A study of Homo sapiens with 4 samples.

Results

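Expression of 10 genes with roles in heart muscle was followed in AC16, which the labels call cardiomyocytes. This established human line arose from a fusion between cells of the adult ventricle and a transformed fibroblast line. The genes, chosen by name, were NPPB, 7 transcription factor genes (GATA4, GATA6, MEF2A, MEF2C, MEF2D, HAND2 and TBX5) and sarcomere genes ACTC1 and TNNT2. They are 10 of the 57891 annotated genes with rows in the deposited transcript counts. The 4 libraries are AC16 cells left untreated (0 min) and cells in 10 nM doxorubicin for 10, 30 or 360 min, with 1 library at each time. Doxorubicin is an anthracycline that traps topoisomerase II on DNA and is known for its toxicity to the heart. The drug was given in fresh serum-free medium after the serum medium was taken off, and whether the untreated cells went through that change is not stated, so drug, medium change and loss of serum cannot be told apart in any comparison with 0 min.

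Heart muscle identity is set by a small group of transcription factors. GATA4 and GATA6 bind GATA motifs, MEF2 proteins bind A/T-rich sites through a MADS domain, TBX5 binds T-box sites and HAND2 binds E-boxes, and together they switch on genes of the contractile apparatus. NPPB encodes the precursor of B-type natriuretic peptide, a hormone released by stretched or failing heart muscle that promotes sodium excretion and widens vessels. ACTC1 encodes cardiac alpha-actin of the thin filament, and TNNT2 encodes cardiac troponin T, which ties the calcium sensor of the thin filament to tropomyosin.

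Levels are given as CPM, the counts of all annotated transcripts of a gene scaled by the total counts of the library. Ranges after a level or a ratio are 95% counting intervals, in which 4 deposited counts are taken as 1 read pair; they cover counting error only. With no replicates, no p-value was computed and every comparison is between libraries. The size rule asked for a 2-fold difference or more, an interval that left out a ratio of 1, and a level of 5 CPM or more on either side. The libraries held 55156612 to 56875881 counts. Between 0 and 10 min 14.5% of 11892 tested genes passed the rule, against 6.8% of 11533 between 0 and 30 min, 6.59% of 11511 between 0 and 360 min and 6.75% of 11502 between 30 and 360 min, so the 10 min library stood farther from the untreated one than the others did. It also had counts at 29129 loci, where the other libraries had 27314 to 27461.

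Of the 10 genes, 6 had at least 1 CPM in all 4 libraries: NPPB, MEF2A, MEF2D, GATA6, TBX5 and GATA4. The other 4, ACTC1, TNNT2, MEF2C and HAND2, stayed below 0.3 CPM in each. In bulk RNA, fewer cells that express a gene and less RNA per cell cannot be told apart. On a per-length scale (TPM over annotated transcripts) NPPB was the highest at 123 to 399 TPM over the libraries. MEF2A followed at 17.0 to 19.3 TPM, MEF2D at 9.97 to 24.9 TPM, GATA6 at 6.76 to 12.4 TPM, TBX5 at 3.83 to 4.78 TPM and GATA4 at 2.42 to 4.50 TPM. The ranges of MEF2A and MEF2D overlapped, as did those of MEF2D and GATA6 and those of TBX5 and GATA4. Within single libraries MEF2D was above GATA6 in all 4: 14.0, 10.5, 24.9 and 9.97 TPM against 12.4, 9.25, 6.76 and 7.58 TPM at 0, 10, 30 and 360 min. MEF2D was above MEF2A only at 30 min, and GATA4 above TBX5 only at 10 min. These TPM leave out assembled models that are not in the annotation, and 1 such model held 12.3% to 69.9% of the MEF2D locus. NPPB lay apart from MEF2A, and GATA6 from TBX5. At 0 min NPPB ranked 1344 of 19784 protein-coding genes by TPM, and GATA4 ranked 11315, where 12633 genes had at least 1 TPM.

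**Figure D1:**
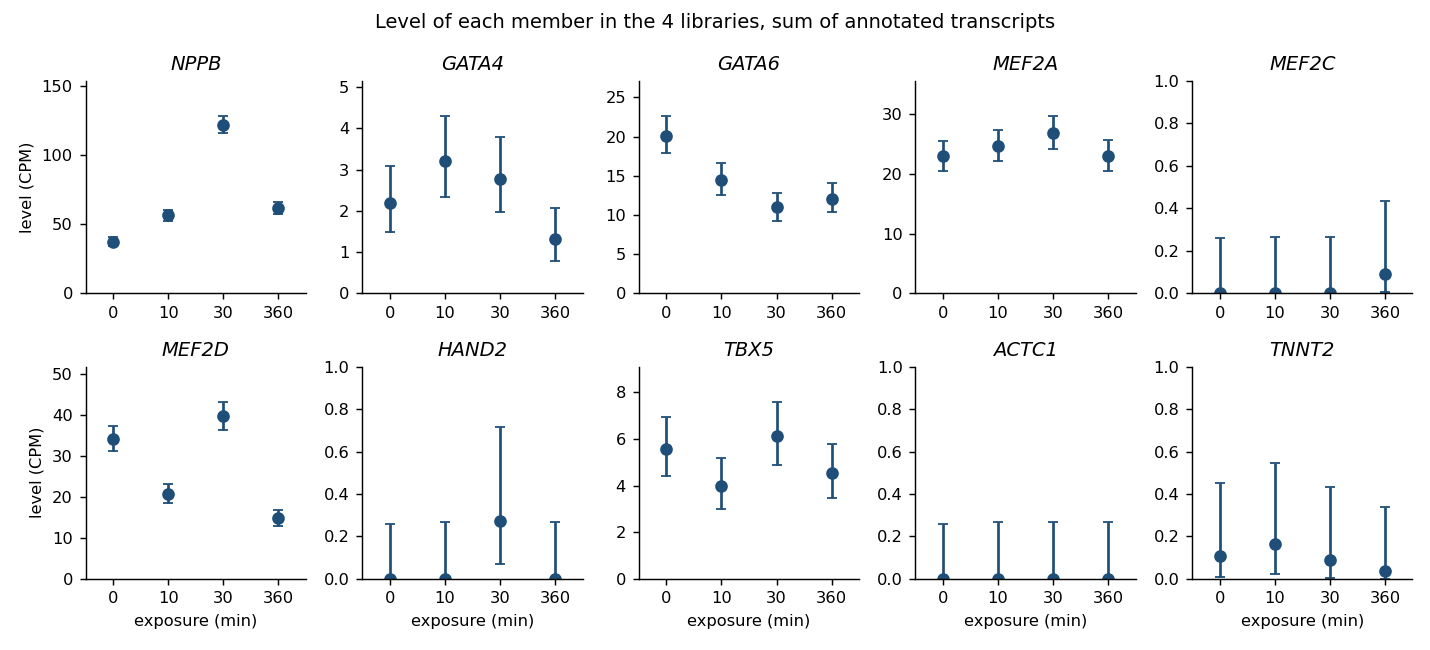
Level of each of the 10 genes (CPM, y axis, own scale per panel from 0) in the 4 libraries (exposure in min, x axis); points are single libraries and bars their 95% counting intervals. NPPB peaks at 122 CPM at 30 min, and ACTC1, TNNT2, MEF2C and HAND2 stay below 0.3 CPM.

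Cardiac actin and cardiac troponin T were close to absent from the counts. ACTC1 (ENSG00000159251, chromosome 15, 34788095 to 34795726, GRCh38 with GENCODE 29 annotation) had 0 counts in all 4 libraries, which allows up to 0.211 to 0.218 CPM when 0 is read as fewer than 3 read pairs. ACTC1 has 3 transcript rows in the deposited table. Its coding sequence is close to those of the other muscle actins, and where reads shared among them were placed was not tested. ACTA1, skeletal alpha-actin, had 0 to 0.18 CPM and ACTA2, smooth muscle alpha-actin, 2.95 to 7.82 CPM by annotated transcripts. By its whole locus, assembled models included, ACTA2 was higher, at 19.1 to 35.0 CPM. TNNT2 (ENSG00000118194, chromosome 1, 201359008 to 201377762) had 6, 9, 5 and 2 counts at 0, 10, 30 and 360 min, or 0.105, 0.162, 0.0905 and 0.0363 CPM. At 0 min 5 of the 6 TNNT2 counts lay in a protein-coding model, and in the other libraries all of them lay in retained-intron models.

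MEF2C and HAND2 were also at or near 0. MEF2C (ENSG00000081189, chromosome 5, 88717117 to 88904257), the MEF2 gene needed for early heart development, had 0 counts at 0, 10 and 30 min and 5 counts at 360 min. HAND2 (ENSG00000164107, chromosome 4, 173524969 to 173530229), a basic helix-loop-helix factor of the developing right ventricle, had 15 counts at 30 min, worth 0.271 CPM (0.0698 to 0.715), and 0 at the other times. The lower bound of that interval lies under the floor of 3 read pairs, 0.211 to 0.218 CPM, that 0 counts allow in the other libraries. HAND2 shares 24.1% of its exon bases with HAND2-AS1 on the other strand, and use of strand in counting is not given in the sources used here.

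Of 20 further cardiac transcription factor and cofactor genes, 11 had at least 1 CPM in all libraries and GATA5 and HOPX had 0 counts in all. SRF, which drives actin and immediate early genes, was at 80.6 to 138 CPM, the T-box repressor gene TBX3 at 73.3 to 105 CPM, and the SRF coactivator gene MRTFB at 25.6 to 51.1 CPM. NKX2-5, the homeobox gene that defines early heart cells, was at 19.0, 10.4, 24.1 and 20.3 CPM at 0, 10, 30 and 360 min. GATA4, whose product binds NKX2-5 protein, stayed at 1.31 to 3.20 CPM.

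Of 22 further sarcomere genes, 10 had at least 1 CPM in all libraries. TPM1, the tropomyosin gene that most cell types use, led at 835 to 1130 CPM, with MYL2 at 27.7 to 37.9 CPM and NEXN at 15.6 to 33.8 CPM. MYL2 encodes the regulatory myosin light chain of the ventricle, and 93.5% to 98.9% of its counts lay in 1 protein-coding model. The cardiac myosin heavy chain genes MYH6 and MYH7, troponin I gene TNNI3, troponin C gene TNNC1 and alpha-actinin gene ACTN2 all stayed below 0.7 CPM, and MYBPC3 had 0 counts throughout. Among 14 calcium handling, channel and junction genes, 6 had at least 1 CPM in all libraries. The calcium pump gene ATP2A2 was at 184 to 340 CPM and the gap junction gene GJA1 at 84.7 to 95.1 CPM, while PLN and TRDN, which encode phospholamban and triadin, had 0 counts. ACTC1, TNNT2, MYH6, MYH7, TNNI3, TNNC1, ACTN2 and MYBPC3 were thus at 0 or below 1 CPM. Other sarcomere genes were not, among them MYL2, TTN at 11.8 to 20.3 CPM, CSRP3 at 2.67 to 4.84 CPM and MYL7 at 1.02 to 2.01 CPM. GATA6, MEF2A, MEF2D, TBX5 and NKX2-5 also had at least 1 CPM in all libraries. CPM is not divided by length. Per length TTN was at 0.259 to 0.442 TPM, beside TNNT2 at 0.0276 to 0.417 TPM and TNNC1 at 0.222 to 2.74 TPM. TTN was thus not set apart from those 2 genes on that scale, while CSRP3 was at 6.31 to 11.7 TPM and MYL7 at 3.73 to 7.15 TPM.

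Markers of other cell types were measured beside them. Of 14 fibroblast and matrix markers 8 had at least 1 CPM in all libraries, with a summed level of 9085 to 14065 CPM; COL1A1 was at 4694 to 6068 CPM and VIM at 2189 to 3748 CPM, and LUM and DCN had 0 counts. Of 8 smooth muscle markers 7 had at least 1 CPM (summed 982 to 1176 CPM), among them MYLK and TAGLN. Of 12 skeletal muscle markers 3 did (169 to 203 CPM). Most of that sum was TNNT1, the slow troponin T gene, at 147 to 168 CPM, beside the myosin heavy chain gene MYH2 at 18.0 to 28.4 CPM. MYOG, MYF5, MYF6, CKM and TNNI2 had 0 counts. Of 6 endothelial markers 2 had at least 1 CPM (16.9 to 41.1 CPM), with KDR at 0. Of 4 immune markers 1 did (29.8 to 57.7 CPM), CD68, which shares 81.7% of its exon bases with another annotated gene on its strand, and of 4 epithelial markers none did (1.60 to 4.35 CPM). Their part in the cardiac levels was not tested.

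**Figure D2:**
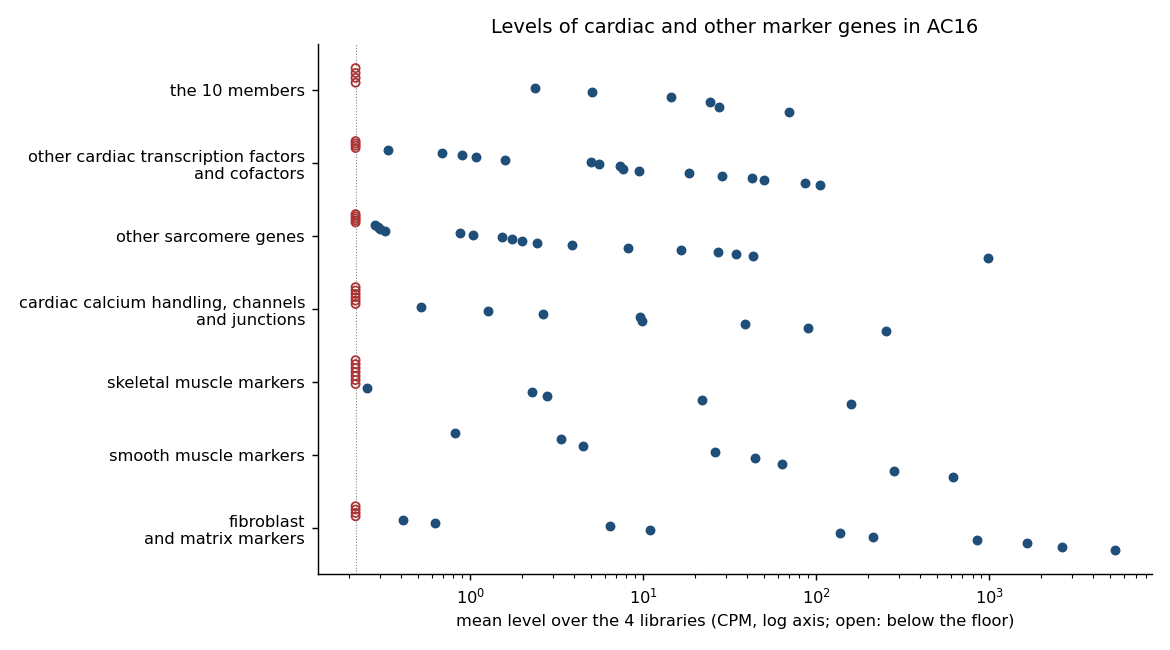
Mean level over the 4 libraries (CPM, log x axis) of each gene of 7 lists (rows); each point is 1 gene, and open points at the dotted line lie below the floor of 3 read pairs. Of the 10 members 4 are open points, and fibroblast and matrix genes reach the highest levels.

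NPPB was the only gene of the 10 past the size rule at 30 min, and it was higher in every treated library than at 0 min. NPPB (ENSG00000120937, chromosome 1, 11857464 to 11858931) stood at 37.1 CPM (34.0 to 40.4) at 0 min, 56.3 CPM (52.4 to 60.4) at 10 min, 122 CPM (116 to 128) at 30 min and 61.5 CPM (57.4 to 65.8) at 360 min. The 30 min library was the highest and the untreated library the lowest, and the intervals of the 10 and 360 min libraries overlapped each other and no other. Against 0 min the ratio was 1.52 (1.36 to 1.70) at 10 min, 3.29 (2.98 to 3.63) at 30 min and 1.66 (1.48 to 1.85) at 360 min. The 360 min level was 0.504 (0.463 to 0.547) of the 30 min level, just short of the 2-fold limit.

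Past the rule in the upward direction at 30 min were 1 of the 5 members tested and 3.55% of all tested genes. By size of its ratio NPPB ranked 152 of 11533 tested genes. Its rank by TPM among protein-coding genes moved from 1344 at 0 min to 320 at 30 min. NPPB has 1 annotated transcript and no assembled model, so its value did not depend on how counts were shared among transcript models, and the locus gave the same counts.

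The 5 genes whose profile over the 4 libraries lay nearest to that of NPPB, by distance between centred log2(CPM + 1) values among 10459 genes with at least 10 CPM in a library, were PTGER4 (distance 0.0852), CDK5RAP3 (0.181), CTGF (0.281), ATF3 (0.286) and MIR222HG (0.293). PTGER4, a prostaglandin E2 receptor gene, was at 3.24, 5.18, 12.6 and 5.44 CPM at 0, 10, 30 and 360 min. CTGF, now called CCN2, a secreted matrix-associated protein gene, was at 114, 153, 286 and 154 CPM. ATF3, a stress-induced bZIP factor gene, was at 10.7, 13.2, 38.2 and 18.1 CPM. In each of the 5 the 30 min library was the highest and the untreated library the lowest. They were picked for nearness to NPPB, so this shared shape follows from the choice. The likeness rests on 4 libraries and is a description.

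**Figure D3:**
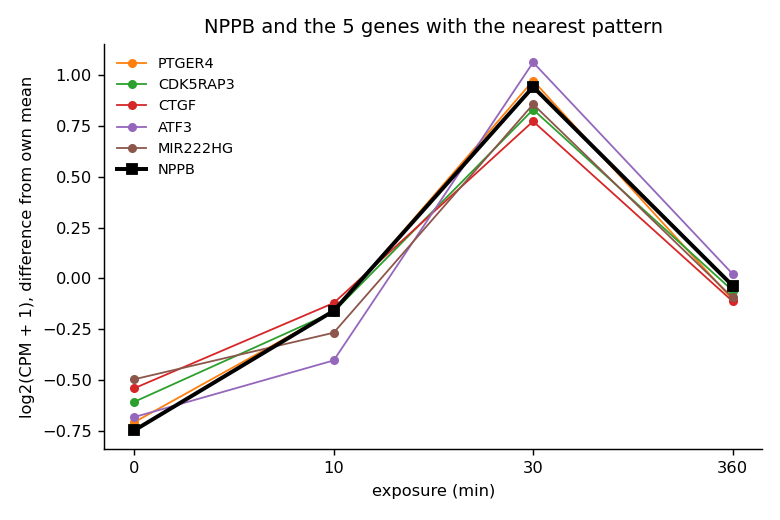
Difference of log2(CPM + 1) from the gene's own mean over the 4 libraries (y axis) against exposure (min, x axis) for NPPB (black squares) and the 5 genes nearest to it (coloured points), 1 library per point. All 6 profiles peak at 30 min and are lowest at 0 min, a shape by which the 5 were picked.

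Of 8 other genes of the natriuretic peptide system, 3 had at least 1 CPM in all libraries. NPPA, the atrial peptide gene, was at 0.0527, 0.144, 0.326 and 0.544 CPM, under 1 CPM throughout, and it shares 25.5% of its exon bases with CLCN6 on the other strand. CORIN, which encodes a protease that cleaves the peptide precursors, had 10, 18, 45 and 30 counts, worth 0.176, 0.324, 0.814 and 0.544 CPM. It was also under 1 CPM throughout, highest at 30 min and lowest at 0 min, where it lay under the floor of 3 read pairs (0.211 CPM). NPPC, NPR1 and NPR3 stayed under 1 CPM. FURIN, a protease gene that can process the precursor, was at 273, 371, 259 and 252 CPM, with no comparison past the rule. MME, which encodes neprilysin, a protease that degrades natriuretic peptides, was higher at 10 min, from 30.2 to 77.0 CPM (ratio 2.55, 2.28 to 2.86). NPR2, the receptor gene for C-type natriuretic peptide, was past the rule at 10 min (2.55, 2.27 to 2.88) and at 30 min (2.29, 2.03 to 2.58), but 86.7% to 92.7% of its counts lay in a retained-intron model, and with the whole locus the ratios were 1.72 (1.57 to 1.89) and 1.51 (1.37 to 1.66), short of the rule. By annotated sums the rule was passed by 2 of the 3 tested genes of this list (10 min), 1 (30 min) and 0 (360 min). The shares of all tested genes past it were 14.5%, 6.8% and 6.59%. By loci MME alone passed it at 10 min and none later, where 10.5%, 2.97% and 1.95% of all tested loci passed. The list's median log2 ratios by annotated sums were 1.35, 0.62 and 0.53, beside -0.0355, -0.0080 and 0.0089 over all tested genes. By loci they were 0.78, 0.59 and 0.088, beside -0.0240, -0.0083 and 0.0047.

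Among 7 muscle stress response genes, 1 of 3 tested was past the rule at 30 min, where 6.8% of all tested genes were. ANKRD1, a nuclear and sarcomeric ankyrin repeat protein gene induced by stretch, was at 397, 454, 953 and 610 CPM at 0, 10, 30 and 360 min, 2.40-fold (2.33 to 2.48) higher at 30 min. The LIM protein genes FHL1 and FHL2 were at 565 to 762 and 196 to 261 CPM and were not past the rule in any comparison. The median log2 ratio of the 3 was 0.41 at 30 min.

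The MEF2 genes present in the line were MEF2A and MEF2D, and their totals are split among several transcript models. The exons printed next are those by which the MEF2D models with the most counts differ. Full-length MEF2 transcripts take 1 of a pair of alternative coding exons after the DNA-binding part, and MEF2D can also include a short exon of 21 bases. Capitals mark bases that are identical between the 138-base and 135-base exons of MEF2D in a global alignment, and the 21-base exon was not aligned. Sequences are from the GENCODE 29 transcripts (GRCh38), 5′ to 3′ on the strand of the gene.
MEF2D 138-base exon (chr1:156480834-156480971, minus strand, models MEF2D-201, MEF2D-202, MEF2D-203 and MEF2D-205): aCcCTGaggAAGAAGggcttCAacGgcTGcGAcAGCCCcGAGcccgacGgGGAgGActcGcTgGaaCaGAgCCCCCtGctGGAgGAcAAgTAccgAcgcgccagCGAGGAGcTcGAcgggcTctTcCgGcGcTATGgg
MEF2D 135-base exon (chr1:156480643-156480777, minus strand, model MEF2D-204): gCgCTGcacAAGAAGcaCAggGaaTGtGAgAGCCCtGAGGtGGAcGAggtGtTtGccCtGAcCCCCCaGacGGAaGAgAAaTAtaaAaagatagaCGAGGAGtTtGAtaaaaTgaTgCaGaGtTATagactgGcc
MEF2D 21-base exon (chr1:156476494-156476514, minus strand, model MEF2D-201): actgaggaccatttagatctg

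The 138-base and 135-base exons of MEF2D were identical at 72 of 144 aligned positions. All 3 exons have lengths divisible by 3, so a swap keeps the reading frame.

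MEF2D (ENSG00000116604, chromosome 1, 156463727 to 156500828) changed in which model held its counts more than in the total of its locus. Summed over annotated transcripts, MEF2D stood at 34.2 CPM (31.3 to 37.4) at 0 min, 20.7 CPM (18.4 to 23.3) at 10 min, 39.7 CPM (36.4 to 43.2) at 30 min and 14.7 CPM (12.8 to 16.9) at 360 min. By this sum the 30 and 0 min libraries were high and the 10 and 360 min libraries low, and MEF2D passed the rule at 360 min, 2.33-fold (1.97 to 2.75) lower than at 0 min and 2.70-fold (2.29 to 3.18) lower than at 30 min. No other member passed in these comparisons, so 1 of 5 tested did, where 3.34% and 3.49% of all tested genes were past it in the downward direction.

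The MEF2D locus also holds an assembled model that is not in the annotation, with 274, 2675, 1119 and 1175 counts at 0, 10, 30 and 360 min. With it the locus stood at 39.0, 68.8, 59.9 and 36.0 CPM. On the locus scale MEF2D was 1.76-fold (1.59 to 1.96) higher at 10 min and 1.53-fold (1.38 to 1.71) higher at 30 min than at 0 min, at a ratio of 0.923 (0.816 to 1.04) at 360 min, and 1.66-fold (1.49 to 1.86) lower at 360 than at 30 min. None of these passed the rule (background by loci 10.5%, 2.97%, 1.95% and 2.57% of tested loci at 10, 30 and 360 min against 0 min and at 360 against 30 min), and the direction at 10 min was opposite to that of the annotated sum (ratio 0.605, 0.521 to 0.702).

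**Figure D4:**
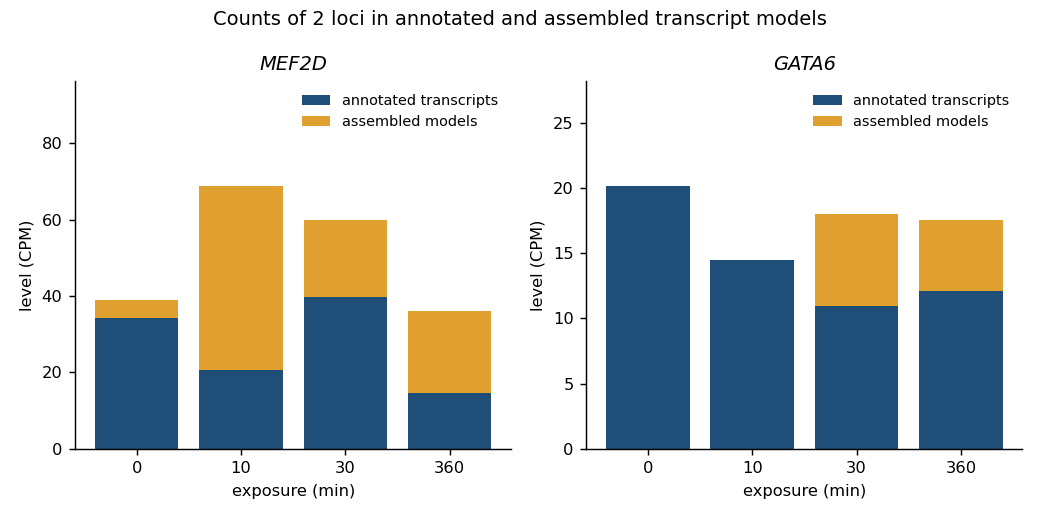
Level of the MEF2D and GATA6 loci (CPM, y axis from 0) in the 4 libraries (exposure in min, x axis), split into annotated transcripts (blue) and assembled models (orange). In MEF2D the assembled part is smallest at 0 min (274 counts) and largest at 10 min (2675 counts); in GATA6 it appears at 30 and 360 min.

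Within the annotated part of MEF2D the leading model differed between libraries. MEF2D-201, which has the 138-base and the 21-base exon, held 1919 counts at 0 min, 575 at 10 min, 1 at 30 min and 0 at 360 min. MEF2D-202, with the 138-base exon and without the 21-base exon, held 0, 297, 1028 and 2 counts. MEF2D-204, with the 135-base exon and without the 21-base exon, held 13, 273, 1113 and 670 counts. As shares of annotated MEF2D counts, models with the 135-base exon made up 0.668%, 23.7%, 50.7% and 82.5% at 0, 10, 30 and 360 min, and the model with the 21-base exon 98.6%, 49.9%, 0.0456% and 0%. The untreated library was thus the one with almost all annotated counts in 1 model. These shares are of estimated counts that the submitters' pipeline divided among overlapping models, the exons of the assembled model are not in the files used here, and it held 12.3% to 69.9% of the locus, so the shares do not give exon use of the whole locus.

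MEF2A (ENSG00000068305, chromosome 15, 99565417 to 99716466) had the smallest ratio of highest to lowest annotated CPM among the 5 transcription factor genes present. It stood at 23.0 CPM (20.6 to 25.6), 24.7 CPM (22.1 to 27.4), 26.8 CPM (24.1 to 29.7) and 23.0 CPM (20.6 to 25.7) at 0, 10, 30 and 360 min. All 4 intervals overlapped, and its ratios to 0 min were 1.07 (0.919 to 1.25), 1.17 (1.00 to 1.36) and 1.00 (0.856 to 1.17). Its counts were spread over several models in each library, and single models differed between libraries: MEF2A-201 had 390, 462, 233 and 266 counts and MEF2A-203 had 111, 0, 302 and 303. MEF2A had no assembled model, and it shares 11.1% of its exon bases with LYSMD4 on the other strand.

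**Figure D5:**
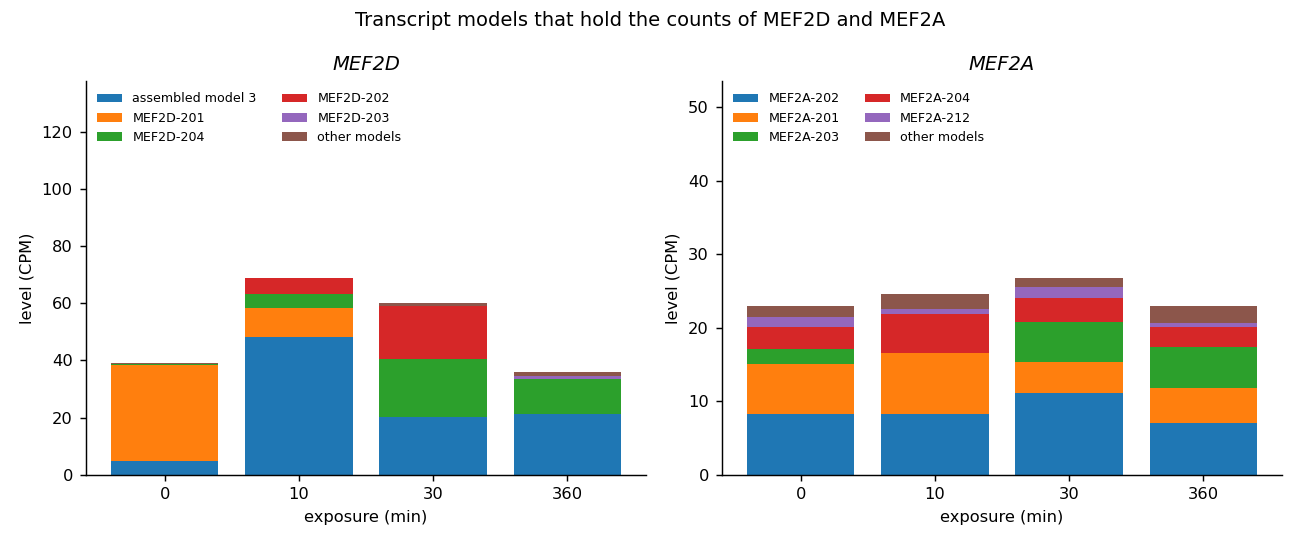
Level (CPM, y axis from 0) of the 5 transcript models (assembled model included) with the most counts in any library, and of the rest together, for MEF2D and MEF2A in the 4 libraries (exposure in min, x axis). MEF2D-201 fills most of the 0 min bar and is at 0 or 1 count at 30 and 360 min, while MEF2A keeps several models in each library.

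Genes that control MEF2 activity were mostly short of the rule. HDAC5, a class IIa deacetylase gene whose product holds MEF2 inactive, was past the rule by its annotated sum at 30 min (40.9 to 103 CPM, ratio 2.51, 2.28 to 2.77) and HDAC9 at 360 min (4.89 to 10.9 CPM, ratio 2.24, 1.67 to 3.02). With whole loci both were short of it, at 1.06 (0.982 to 1.14) and 1.04 (0.882 to 1.22). MAPK14, the p38 alpha kinase gene, was past the rule at 10 min by both values (2.04, 1.85 to 2.25, by the annotated sum and 2.10, 1.90 to 2.31, by the locus). Of 8 tested genes of this list, 1 was past the rule at each of 10, 30 and 360 min. Of all tested genes 14.5%, 6.8% and 6.59% were. By loci 1 of 9 tested was past it at 10 min and 0 at 30 and 360 min, beside 10.5%, 2.97% and 1.95% of all tested loci. The median log2 ratios of the list were 0.54, 0.34 and -0.0326 by annotated sums and 0.35, 0.20 and -0.0510 by loci. The median of all tested genes was between -0.0355 and 0.0089.

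GATA6 (ENSG00000141448, chromosome 18, 22169443 to 22202528) was lower in every treated library by its annotated sum, and less so by its locus at 30 and 360 min. GATA6, which shares many heart targets with GATA4, stood at 20.1 CPM (17.9 to 22.6) at 0 min, 14.5 CPM (12.5 to 16.6) at 10 min, 10.9 CPM (9.27 to 12.8) at 30 min and 12.1 CPM (10.3 to 14.1) at 360 min. The untreated library was the highest, with an interval apart from the other 3. At 30 min the annotated sum was 1.84-fold (1.50 to 2.25) lower than at 0 min, short of the rule. The locus had 2 assembled models, 1 with 390 counts at 30 min and the other with 302 counts at 360 min, and at most 1 count elsewhere. With these the GATA6 locus stood at 20.1, 14.5, 18.0 and 17.6 CPM, and its ratios to 0 min were 0.719 (0.598 to 0.864), 0.894 (0.751 to 1.06) and 0.872 (0.732 to 1.04). By the locus only the 10 min interval excluded 1.

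GATA4 (ENSG00000136574), the pioneer factor of the pair, was low. It had 124, 178, 153 and 72 counts at 0, 10, 30 and 360 min, worth 2.18 CPM (1.48 to 3.09), 3.20 CPM (2.33 to 4.29), 2.77 CPM (1.96 to 3.80) and 1.31 CPM (0.774 to 2.06). The 360 min library was the lowest, and its interval overlapped that of 0 min. GATA4 did not reach the 5 CPM needed for the rule; its 360 min level was 2.12-fold (1.18 to 3.94) below that at 30 min. The counts were spread over 8 models, none of which led in all libraries.

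TBX5 (ENSG00000089225, chromosome 12, 114353931 to 114408442), the T-box gene of the left ventricle and atria, stood at 5.57 CPM (4.41 to 6.94) at 0 min, 3.98 CPM (3.00 to 5.17) at 10 min, 6.13 CPM (4.90 to 7.59) at 30 min and 4.53 CPM (3.48 to 5.80) at 360 min. All 4 TBX5 intervals overlapped. Its ratios to 0 min were 0.713 (0.496 to 1.02), 1.10 (0.800 to 1.51) and 0.813 (0.574 to 1.15), and none of these intervals excluded 1.

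At 10 min none of the 5 tested members was past the rule, where 14.5% of all tested genes were. A set of 5 genes is too small to tell 0 calls from that share. For the 5 tested members the median log2 ratios at 10, 30 and 360 min were -0.47, 0.21 and -0.30 by annotated sums and 0.10, 0.22 and -0.12 by loci. Over all tested genes the medians lay between -0.0355 and 0.0089. Among further sarcomere genes at 10 min, LDB3 was higher (ratio 2.75, 1.74 to 4.45) and MYPN, a Z-disc protein gene, was 3.42-fold (2.46 to 4.83) lower, from 11.7 to 3.42 CPM. None of the 11 tested further cardiac transcription factor genes and none of the 5 tested calcium handling, channel and junction genes was past the rule at 10 min, and none of these 3 lists had a gene past it at 30 or 360 min against 0 min. In the same 10 min library PDGFRA among fibroblast markers, LMOD1 among smooth muscle markers, MYH3 among skeletal muscle markers and both tested endothelial markers, VWF and TIE1, were past the rule, all upward, and their part in the values above was not tested.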

How the data were processed

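RNA was sequenced from 4 AC16 libraries, 1 for each exposure time. The authors deposited estimated counts per assembly locus and per transcript model, as whole numbers, neither scaled nor divided by length. HISAT2, DESeq2 and GRCh38 are named, without versions, per the submitters' processing notes; for the counting tool, annotation release and strand setting the sources used here give nothing. RNA was selected on poly(dT) beads and copied with a SmartScribe kit, per the labels' protocols.

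Annotated rows were summed per gene with GENCODE 29, which holds 197268 of the 215876 annotated transcript rows, and divided by column totals. TPM used annotated transcript lengths. A locus was tied to a gene by its identifier, or where its counts less its assembled models equalled those of that gene, or of up to 6 neighbours of which that gene held 95%; this was done for 41525 genes (87.5% of counts). TNNT2 had no locus of its own. Of 7156 low values (1 to 24) of single-transcript loci, 32.4% were multiples of 4, where even spacing gives 25%, so a read pair was taken as worth 4 counts, giving 13789153 to 14218970 read pairs per library. The labels mention no molecular identifiers.

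Ratio intervals are exact conditional binomial (Clopper-Pearson), level intervals exact Poisson, at 95%, with SciPy 1.17.1, and 0 counts were read against a floor of 3 read pairs. The rule was tested on simulated data. Alternatives used TMM factors (R 4.3.3, edgeR 4.0.16), median-of-ratios factors, loci, other minimums, undivided counts, another baseline and protein-coding transcripts only. The edgeR and DESeq2 tests were not run, as each time has 1 library. The members and the 12 other gene lists were chosen with earlier results of these data known. Named from each list were genes past the rule against 0 min, up to 4 with the highest mean CPM and up to 6 at 0 counts. The genes nearest to NPPB were the 5 with the smallest distance. Genes named outside this rule, such as NKX2-5, ACTA1, ACTA2, TNNI3, MYH6, MYH7, TTN, CSRP3 and MYL7, were chosen after their values were seen. An item that the rule names is not reported here.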

Additional observations from a re-analysis of the deposited data

Results flagged for a closer look

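Counts in assembled models, which the annotated sums leave out, were above their 0 min level in 2 of the member loci. The MEF2D model had 2675 counts at 10 min, 1119 at 30 min and 1175 at 360 min, against 274 at 0 min. The first GATA6 model had 390 counts at 30 min against 1 at 0 min, and the other had 302 counts at 360 min against 0 at 0 min.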

How the results depend on the processing

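No paired analysis was possible because each exposure time has 1 library. With whole loci in place of annotated sums, 0 members passed the size rule at 360 min against 0 min and 0 at 360 min against 30 min, in place of 1 (MEF2D) in each. With a minimum of 1 CPM, or with no minimum, 2 members passed at 360 min against 30 min, as GATA4 joined MEF2D. The counts at 10 and 30 min against 0 min, and the 6 members at 1 CPM or more in all libraries, kept their value under every alternative run for them, with NPPB the gene past the rule at 30 min each time. Of 186 log2 ratios of single members under an alternative, 172 stayed within the counting interval of the value reported or, for members past the rule, kept that call. None of a member past the rule changed sign. The MEF2D ratio at 10 min, not past the rule, changed sign with the locus, from -0.72 to 0.82 on the log2 scale. Against the median of the other 3 libraries NPPB at 10 min went from 0.60 to -0.13. Over all genes, loci gave 1130, 309 and 202 calls at 10, 30 and 360 min against 0 min and 267 at 360 against 30 min, where annotated sums gave 1730, 784, 759 and 776; the loci tested were fewer. Depth limits GATA4, at 18 to 44.5 read pairs a library, and the 4 members under 0.3 CPM.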
